A study of Mus musculus with 8 samples.

Results

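The genes described here are 40 genes of ribosome biogenesis, the making of ribosomes in the nucleolus. A probe set is the group of short probes by which the array measures 1 transcript, and the members were all probe sets whose annotated gene symbol is one of the 40. This gave 86 of the 45037 probe sets on the array, for 39 of the 40 genes, since Npm3 had no probe set under its own symbol. Of the 86 probe sets, 82 passed the filter on low signal. The 4 that did not (2 of Polr1a and 1 each of Wdr12 and Ebna1bp2) were at the floor of 32 on every array. All 39 genes were tested, among 12223 genes in all, and the brightest probe set of each passed the filter in all 4 groups.

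Total RNA of 8 mouse samples, in 4 groups of 2, was hybridised to Affymetrix expression arrays. All 8 samples came from cells with a GFP reporter for AID, the cytidine deaminase that mutates immunoglobulin genes in activated B cells. In 1 source, labelled BCR-ABL1 and BM (the usual abbreviation of bone marrow), the cells carried BCR-ABL1, the fusion tyrosine kinase of Philadelphia chromosome-positive leukaemia. The other source was splenic B cells stimulated with LPS, a bacterial lipopolysaccharide that activates B cells, and the cytokine IL-4. Each source was split into GFP-negative and GFP-positive cells. The spleen fractions therefore share their stimulation, and the spleen groups are labelled without BCR-ABL1. The labels used here give no strain, age, time of stimulation or purification step. Nothing in them says that the replicates came from separate mice or cultures, so the p-values measure only the spread between these arrays, which may be technical. The study asked how GFP-positive cells differ from GFP-negative cells.

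A ribosome is made in steps that the members follow. RNA polymerase I transcribes the large ribosomal precursor RNA, small nucleolar ribonucleoproteins (snoRNPs) modify it, a large complex called the small subunit processome cuts and folds the part that becomes the 40S subunit, and other factors assemble the 60S subunit. Nucleolar scaffold proteins organise these steps, and enzymes of polyamine and nucleotide synthesis supply the growing cell. Resting B cells make few ribosomes, activated B cells enlarge their nucleoli before they divide, and many of these genes are known targets of the transcription factor MYC, which binds the E-box CACGTG.

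Promoter sequences are shown for 4 members, because the members moved together in the spleen cells and the E-box is the letter sequence with which this pathway is linked. RefSeq windows (GRCm38.p6) of 300 bases, from 250 before to 50 after a start site, were found for 35 of the 40 genes, in 39 windows. Bysl and Nop16, which differed the most within their assembly steps, hold no E-box but hold the related CACGCG. Nop2 and Nme1 hold the E-box. The lines below run 5′ to 3′ on the strand of the gene, with the E-box or CACGCG in capitals.
Bysl, chr17:47611443-47611742, minus strand: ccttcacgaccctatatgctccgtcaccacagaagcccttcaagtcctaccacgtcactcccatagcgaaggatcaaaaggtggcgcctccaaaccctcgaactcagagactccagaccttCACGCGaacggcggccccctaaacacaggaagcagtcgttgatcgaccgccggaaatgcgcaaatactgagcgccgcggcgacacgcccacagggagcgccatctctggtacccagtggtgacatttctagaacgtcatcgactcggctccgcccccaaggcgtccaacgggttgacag
Nop16, chr13:54590025-54590324, minus strand: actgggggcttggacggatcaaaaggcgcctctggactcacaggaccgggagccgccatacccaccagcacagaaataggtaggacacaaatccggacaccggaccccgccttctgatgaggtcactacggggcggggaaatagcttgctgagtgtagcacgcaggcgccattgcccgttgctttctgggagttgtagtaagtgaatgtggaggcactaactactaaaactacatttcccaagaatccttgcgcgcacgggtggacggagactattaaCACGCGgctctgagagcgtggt
Nop2, chr6:125131633-125131932, plus strand: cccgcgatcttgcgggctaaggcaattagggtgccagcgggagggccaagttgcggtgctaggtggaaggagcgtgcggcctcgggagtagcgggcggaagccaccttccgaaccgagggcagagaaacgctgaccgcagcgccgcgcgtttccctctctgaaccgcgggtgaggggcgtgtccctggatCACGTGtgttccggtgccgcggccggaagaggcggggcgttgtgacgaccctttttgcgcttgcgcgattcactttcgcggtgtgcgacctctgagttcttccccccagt
Nme1, chr11:93968223-93968522, minus strand: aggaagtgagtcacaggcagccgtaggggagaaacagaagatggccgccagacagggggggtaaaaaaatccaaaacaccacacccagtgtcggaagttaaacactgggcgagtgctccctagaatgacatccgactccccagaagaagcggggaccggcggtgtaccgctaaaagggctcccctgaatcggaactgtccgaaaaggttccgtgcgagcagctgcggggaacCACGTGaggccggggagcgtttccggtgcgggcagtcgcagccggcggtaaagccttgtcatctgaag

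CACGTG reads the same on both strands, and its first base lies at position -60 of Nop2 and -18 of Nme1, counted from the start site. It was present in 6 of the 35 members (17.1%), against 8.91% of protein-coding genes with a window of the same length. The other 4 with it were Mybbp1a, Pes1, Utp20 and Wdr43. CACGCG, searched on both strands, was present in 11 of 35 (31.4%, against 13.7%), at position -129 of Bysl and 29 of Nop16. CGGAAG, the core recognised by ETS factors, was found on either strand in 16 (45.7%, against 23.5%), and TATAAA, the TATA box, in 3 (8.57%, against 14.8%). The member windows were also richer in CpG than the windows of protein-coding genes, with a median observed-to-expected CpG ratio of 0.834 against 0.567. The E-box, CACGCG and CGGAAG themselves contain CG, and the part of CpG content in these shares was not tested. The counts describe letters, not binding. The 6 members with the E-box differed between the spleen fractions by 0.33 (Utp20) to 0.99 (Nme1) on the log2 scale, with a median of 0.53. The 28 tested members whose windows hold none covered a wider range on both sides, from 0.03 (Nolc1) to 2.79 (Bysl), with a median of 0.69, and the 2 sets were not tested against each other.

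The arrays were comparable in signal except for the spleen GFP-negative pair. Their 2% trimmed mean signals were 479 and 500, against 591 to 596 on the other 6 arrays, and their ratio of 3′ to 5′ probes for Gapdh was 1.88 and 1.93, against 1.40 to 1.48. They also held transcripts of other cell types. The 10 marker genes of myeloid cells with a probe set, among them S100a8 and Lyz2, summed to 75037 and 76748 in normalised signal there, against 372 to 713 on the other 6 arrays. The 11 markers of T and NK cells, among them Cd3e, summed to 16905 and 18384 there, against 1150 and 1185 on the spleen GFP-positive arrays. S100a8 was at the floor of 32 on both BCR-ABL1 GFP-negative arrays. B lineage markers were present in all groups, with sums of 60465 and 61148 in spleen GFP-negative, 49683 and 51237 in spleen GFP-positive and 39885 to 41611 in BCR-ABL1 cells. The sums hide single genes that moved apart. In BCR-ABL1 GFP-positive cells 1 of the 9 was at or under the filter signal. By the test given below, 3 of 9 were lower with GFP in BCR-ABL1 cells, down to -3.73 on the log2 scale, where 2.3% of all genes were. Markers of pre-B cells, the B cell precursors of the bone marrow, summed to 30141 to 34235 in BCR-ABL1 cells, to 6659 and 7299 in spleen GFP-negative and to 1052 and 1436 in spleen GFP-positive cells. By these sums the labelled cell types had their markers, though not every single one, and the spleen GFP-negative arrays had those of myeloid, T and NK cells beside them. Of the pre-B sum there, most was Il7r, a receptor also found on T cells, with a mean of 4566 against 36.6 on the spleen GFP-positive arrays.

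Values below are signals after quantile normalisation over the 8 arrays, given as replicate 1 and replicate 2, and differences are log2 fold changes ± standard error from limma, with 2 arrays against 2. A gene is represented by its brightest tested probe set and is called where its Benjamini-Hochberg adjusted p over 12223 genes is under 0.05. An exact permutation test of 2 arrays against 2 cannot give a p under 0.333, so all calls rest on the spread pooled over the 4 groups. In a bulk sample, fewer cells of a type and less RNA per cell cannot be told apart.

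In the spleen cells, ribosome biogenesis genes were higher in the GFP-positive than in the GFP-negative cells at every step of the pathway. In BCR-ABL1 cells none was called between the fractions, but few of all genes were either (3.07% higher and 2.3% lower). Under quantile normalisation, 34 of 39 members rose with GFP in spleen cells and 0 fell, beside 45.7% of all genes called higher and 31.4% called lower. At least 2-fold rises were seen for 11 members, where 22.3% of all genes did. The median member was higher by 0.54, and the median of all genes by 0.18. On 36 of 39 members both GFP-positive arrays lay above both GFP-negative arrays, as they did for 49.9% of all genes.

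The count depended on how the arrays were scaled. On the deposited scale and with equal medians over all probe sets, all 39 members were called higher, while the median of all genes moved to 0.39 and 0.55. With equal medians over the tested probe sets, 25 members were called higher and 5 lower, with the median of all genes at -0.08 and the median member at 0.35. Of all calls, 59.2% were higher in the main scaling, 69.2% on the deposited scale, 75.5% with equal medians and 46.9% with equal medians of the tested probe sets. The 25 genes called higher under all 4 scalings hold all 11 that rose at least 2-fold. Npm1, Pa2g4, Nop56, Ddx21 and Odc1 were called in opposite directions by different scalings. With equal medians of the tested probe sets 9 members were below 0, these 5 and, not called there, Nolc1 (-0.13), Ddx18 (-0.08), Ppan (-0.17) and Rrs1 (-0.0046).

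**Figure D1:**
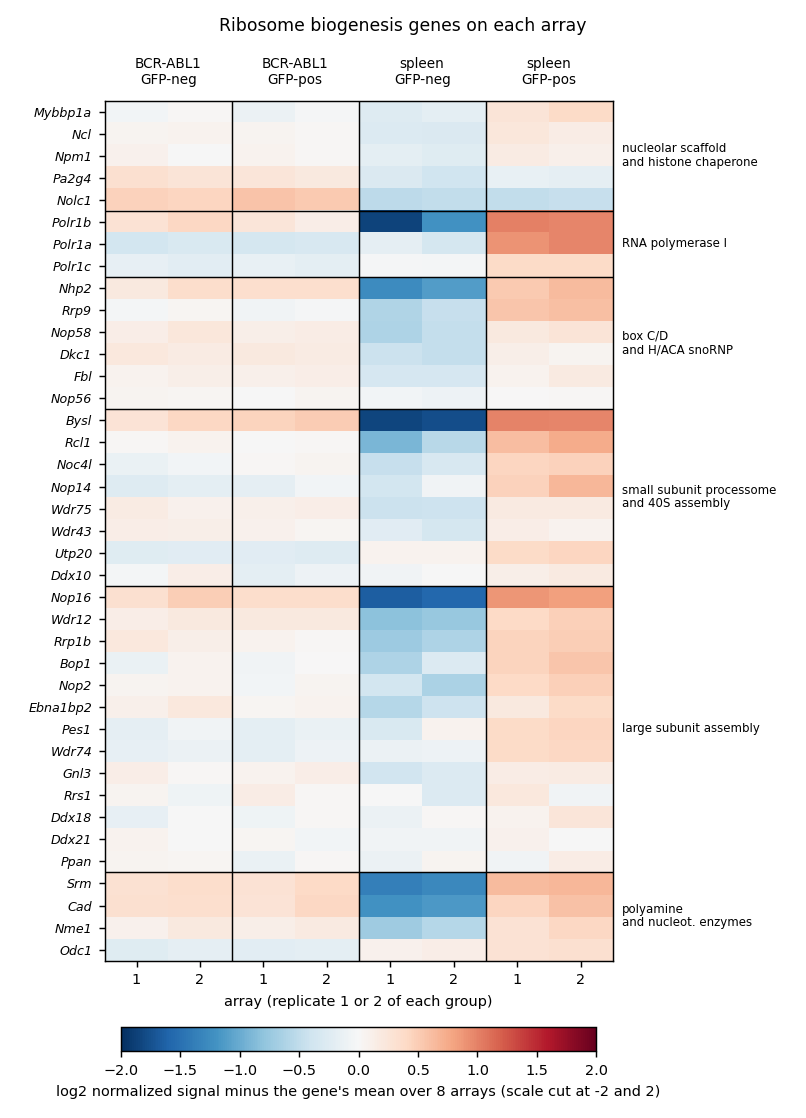
Each row is a member, each column 1 of the 8 arrays, and the colour is the log2 normalised signal minus the gene's mean over the 8 arrays (blue lower, red higher, scale ended at -2 and 2). The spleen GFP-negative arrays are the lowest group for 29 of 39 genes and the spleen GFP-positive arrays the highest for 32, under quantile normalisation. These orders were not counted over all genes. With equal medians of the tested probe sets, 9 members (Npm1, Pa2g4, Nop56, Ddx21, Odc1, Nolc1, Ddx18, Ppan and Rrs1) change direction between the spleen fractions.

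All 3 subunit genes of RNA polymerase I rose in GFP-positive spleen cells. Polr1b, the second-largest subunit, had signals of 89.1 and 139 on the spleen GFP-negative arrays and 649 and 638 on the GFP-positive arrays. The groups did not overlap, although the GFP-negative arrays differed from each other by 0.65 on the log2 scale, the widest gap between replicates of any member. The rise was 2.53 ± 0.20 (adjusted p = 4.97e-06). Polr1a, the largest and catalytic subunit, had 638 and 568 against 1352 and 1424, a rise of 1.20 ± 0.093 (adjusted p = 5.09e-06). Its GFP-positive spleen arrays stood above all the others, since the 4 BCR-ABL1 arrays lay between 560 and 587. Polr1c, a subunit shared with RNA polymerase III, rose by 0.41 ± 0.047, from 3080 and 3034 to 4080 and 4056.

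Of the 5 tested genes of the nucleolar scaffold, 4 were called higher, with a median of 0.35 over the brightest probe sets, and no test set this step against the others. Nucleolin (Ncl), which binds the precursor RNA, had 6276 and 6231 in GFP-negative and 8874 and 8458 in GFP-positive spleen cells, a rise of 0.47 ± 0.034 (adjusted p = 3.68e-06) that missed the threshold at 0.09 with equal medians of the tested probe sets. Mybbp1a, a nucleolar protein that binds MYB, rose by 0.54 ± 0.058, from 5220 and 5444 to 7453 and 8110. The histone chaperone nucleophosmin (Npm1) was higher by 0.35 ± 0.041, with 10755 and 10457 against 13824 and 13205, but lower by -0.16 with equal medians of the tested probe sets. Pa2g4, a nucleolar growth regulator, was likewise higher by 0.18 ± 0.046 and lower by -0.15 under that scaling. Some other probe sets of these genes gave larger values, with 1.14 ± 0.042 and 0.94 ± 0.071 for Pa2g4, 1.09 ± 0.086 for Mybbp1a and 0.94 ± 0.053 for Ncl. Smaller values came from others, with 0.06 ± 0.081 (not called) and 0.28 ± 0.048 for Ncl and 0.12 ± 0.042 for Pa2g4. The second probe set of Npm1 gave 0.35 ± 0.038. Nolc1, a chaperone of snoRNPs, had 2043 and 2087 against 2083 and 2140, a difference of 0.03 ± 0.049 (adjusted p = 0.568). Its 4 BCR-ABL1 arrays were at 3949 to 4384, above all 4 spleen arrays.

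All 6 snoRNP genes were called higher, Nop56 with a sign that turned with the scaling. Nhp2, a core protein of the H/ACA snoRNPs and of telomerase, had 1379 and 1508 in GFP-negative against 4733 and 5081 in GFP-positive spleen cells. That is a rise of 1.77 ± 0.070 (adjusted p = 1.18e-07), with no overlap. Rrp9, a protein of the U3 snoRNP, rose by 1.12 ± 0.092, from 443 and 489 to 991 and 1028. The box C/D core gene Nop58 rose by 0.78 ± 0.060, and Dkc1, the pseudouridine synthase of the H/ACA snoRNPs, by 0.54 ± 0.047. Fibrillarin (Fbl), the methyltransferase of the box C/D snoRNPs, had 6722 on both GFP-negative arrays and 8988 and 9687 on the GFP-positive arrays, a rise of 0.47 ± 0.040 that did not pass the threshold, at 0.07, with equal medians of the tested probe sets. Nop56, the partner of Nop58, was higher by only 0.09 ± 0.036 (adjusted p = 0.0454) and lower by -0.31 under that scaling. Its call was also lost when any of 5 single arrays was left out, among them spleen GFP-negative replicate 2, where the difference was 0.06.

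The members of the small subunit processome and of 40S assembly included the greatest rise. Bysl, which is needed for 40S maturation, had 390 and 404 in GFP-negative and 2767 and 2736 in GFP-positive spleen cells, a 6.93-fold rise (2.79 ± 0.073, adjusted p = 1.65e-08). All 4 BCR-ABL1 arrays lay between, at 1677 to 1971. Rcl1, which takes part in cutting the precursor RNA, had 490 and 625 against 1410 and 1548 (1.42 ± 0.12). The processome partners Noc4l and Nop14 rose by 0.83 ± 0.057 and 0.78 ± 0.11. Wdr75 and Wdr43, of the processome group that also acts in transcription, rose by 0.61 ± 0.049 and 0.38 ± 0.051, the latter at 0.06 and not called with equal medians of the tested probe sets. Utp20, a long scaffold protein, had 1516 on both GFP-negative arrays and 1871 and 1936 on the GFP-positive arrays (0.33 ± 0.062). The helicase gene Ddx10, with 944 and 987 against 1069 and 1117, did not pass the threshold (0.18 ± 0.088, adjusted p = 0.0927).

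Large subunit assembly held both strong and weak responses. Nop16 had 274 and 287 in GFP-negative and 1571 and 1510 in GFP-positive spleen cells (2.46 ± 0.088, adjusted p = 6.76e-08). The 3 genes of the PeBoW complex, which processes the RNA of the 60S subunit, all rose but not alike. Wdr12 rose by 1.22 ± 0.049, from 2089 and 2167 to 4824 and 5083, and Bop1 by 0.95 ± 0.12, from 1139 and 1436 to 2378 and 2562. Pes1 rose by 0.51 ± 0.11, with 1909 and 2474 against 3052 and 3149. Rrp1b, a nucleolar protein of early 60S particles, rose by 1.14 ± 0.056, and Nop2, a methyltransferase of the 28S RNA, by 0.94 ± 0.091. Ebna1bp2 (0.78 ± 0.076), Wdr74 (0.51 ± 0.059) and Gnl3, the GTP-binding protein nucleostemin (0.48 ± 0.051), rose as well, Gnl3 only to 0.14, not called, with equal medians of the tested probe sets.

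Of the other 4 genes of this step, 3 did not pass the threshold. Rrs1, which brings the 5S ribonucleoprotein to the particle, had 2812 and 2332 against 3287 and 2684 (0.21 ± 0.12, adjusted p = 0.132), and the fractions overlapped. Ppan had 2668 and 3009 against 2764 and 3216 (0.07 ± 0.092), with overlap too. The helicase gene Ddx21 was at 6448 and 6420 against 7213 and 6758 (0.12 ± 0.049, adjusted p = 0.0558), and was called lower with equal medians of the tested probe sets (-0.25) and higher on the deposited scale (0.24). Ddx18, another helicase gene, was just past the threshold (0.21 ± 0.082, adjusted p = 0.0459), and lost the call without any of 4 single arrays, with 0.12 without spleen GFP-positive replicate 2.

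The enzyme genes of polyamine and nucleotide synthesis split in the same way. Spermidine synthase (Srm) had 1427 and 1505 in GFP-negative and 5725 and 5860 in GFP-positive spleen cells, a 3.95-fold rise (1.98 ± 0.053, adjusted p = 1.79e-08). Cad, the enzyme of the first steps of pyrimidine synthesis, had 971 and 1014 against 3029 and 3386 (1.69 ± 0.074). Nme1, a nucleoside diphosphate kinase, had 3157 and 3472 against 6265 and 6857 (0.99 ± 0.067). Ornithine decarboxylase (Odc1), the rate-limiting enzyme of polyamine synthesis, was higher by only 0.19 ± 0.037, with 6540 and 6740 against 7508 and 7658, and lower by -0.19 with equal medians of the tested probe sets.

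**Figure D2:**
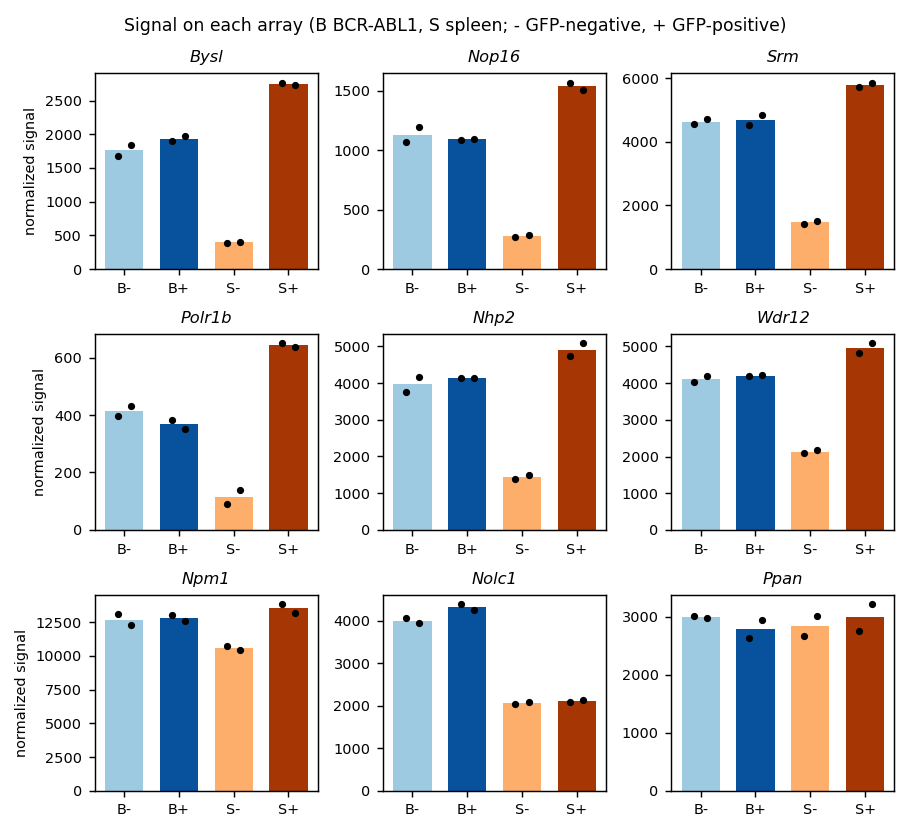
Bars are mean normalised signals of the 2 arrays of each group and points are the single arrays, on linear axes that start at 0, for 9 members. Bysl, Nop16, Srm, Polr1b, Nhp2 and Wdr12 are lowest on the spleen GFP-negative arrays and highest on the spleen GFP-positive arrays with BCR-ABL1 between; Nolc1 lies at 2043 to 2140 in both spleen fractions, Ppan overlaps in them, and Npm1, higher here by 0.35, is lower by -0.16 with equal medians of the tested probe sets.

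Other values moved with this rise. Of the mitosis and replication genes, 19 of 19 tested were higher in GFP-positive spleen cells, with a median of 3.26, and their signals summed to 23543 and 23969 in GFP-negative against 85228 and 85800 in GFP-positive spleen cells. Mki67, which marks cycling cells, rose by 1.92 ± 0.071. The myeloid markers fell in GFP-positive cells for 8 of 8 tested, and the T and NK cell markers for 10 of 10. On the spleen GFP-positive arrays 8 of 10 myeloid and 6 of 11 T and NK cell markers with a probe set were at or under the signal of the filter (51.0), so the sizes of these falls are limits set by the floor. S100a8 went from a mean of 19166 to 33.3, and Cd3e from 3068 to 42.3, beside the floor of 32. Of the pre-B markers, 4 of 6 tested fell and 1, Vpreb1, rose, with a median of -1.02, and 5 of 7 were at or under that signal on the spleen GFP-positive arrays. The spleen GFP-negative arrays also had the highest 3′ to 5′ ratios. The part of other cell types, of cycling and of RNA quality in the rise of the members was not tested.

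Among 134 further genes of the same pathway, 127 were tested, of which 108 (85%) were higher and 7 (5.51%) lower in GFP-positive spleen cells, beside the 45.7% and 31.4% of all genes, with a median of 0.70. With equal medians of the tested probe sets 93 were higher and 15 lower, where 37.1% and 42% of all genes were, and with equal medians over all probe sets 121 and 2, where 60.8% and 19.8% were. The counts by step that follow are those of quantile normalisation. For RNA polymerase I and its factors 7 of 9 were higher, led by Taf1b (1.34 ± 0.19) and Taf1d (1.03 ± 0.066), whereas Taf1c, of the same promoter selectivity complex, was lower by -0.85 ± 0.11. All 13 genes of snoRNP assembly and RNA modification were higher, with Naf1 (1.46 ± 0.088) and the ATPase gene Ruvbl1 (1.38 ± 0.072) in front. In the small subunit list 33 of 37 were higher, led by the helicase gene Dhx37 (2.75 ± 0.11) and Rrp12 (1.97 ± 0.13), and Rrp36 was lower (-0.40 ± 0.11). The large subunit list had 35 of 43 higher, with Wdr18 (2.74 ± 0.11), Rrp15 (2.25 ± 0.098) and Pelp1 (2.01 ± 0.095), and 3 lower, Rpf2 (-0.35 ± 0.066), Nsa2 (-0.28 ± 0.053) and Mdn1 (-0.24 ± 0.081). With equal medians over all probe sets Rrp36 (0.13), Nsa2 (0.01) and Mdn1 (0.29) lay above 0. Of the 11 genes of the exosome, the complex that trims RNA from its 3′ end, 9 were higher, with the nuclease Dis3 at 2.16 ± 0.12. In the polyamine and nucleotide list 11 of 14 were higher, with Dhodh (1.98 ± 0.30) and Umps (1.93 ± 0.086), the later enzymes of the pyrimidine pathway that Cad begins. The 2 genes of this list that fell were Sat1 (-1.68 ± 0.052), which acetylates and so removes polyamines, and Oaz2 (-0.58 ± 0.069). Oaz2, not itself an enzyme, marks ornithine decarboxylase for breakdown.

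In BCR-ABL1 cells 0 members were called higher and 0 lower between GFP-positive and GFP-negative cells by limma, beside 3.07% and 2.3% of all genes. By the brightest probe sets, Noc4l was the 1 member with an unadjusted p under 0.05 (adjusted p = 0.308 by limma), with 3665 and 3839 against 4066 and 4173, a difference of 0.14 ± 0.057. Its other probe sets gave -0.11 ± 0.099, -0.05 ± 0.078 and 0.05 ± 0.057. The differences ran from -0.19 ± 0.088 for Ddx10 to 0.14 ± 0.073 for Bysl, with a median of -0.01. Over all 82 tested member probe sets they ran from -0.24 to 0.34, with 0 called. The fractions did not overlap for 13 members, 5 higher and 8 lower, where 27.4% and 24% of all genes had such gaps.

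The intervals show how large a difference the fit could have missed. Their spread is pooled over all 4 groups, not taken from the BCR-ABL1 arrays alone. For 25 of 39 members the whole 95% interval of the difference lay within 0.25 log2 units of 0, and over all members the bounds ran from -0.61 (Polr1b) to 0.38 (Rrs1). The bounds of these 2 genes include gaps between spleen replicates, of 0.65 in GFP-negative cells for Polr1b and 0.29 in GFP-positive cells for Rrs1. The median gap between replicates was 0.10 in spleen GFP-negative cells, against 0.07 and 0.05 in BCR-ABL1 GFP-negative and GFP-positive cells. Bysl, the member with the greatest rise in spleen cells, had 1677 and 1845 in GFP-negative and 1895 and 1971 in GFP-positive BCR-ABL1 cells. Srm had 4568 and 4702 against 4512 and 4843, so the fractions overlapped. Of the 127 further pathway genes 0 were higher and 1 was lower, Sat1 (-0.27 ± 0.052, adjusted p = 0.0239). No scaling and no left-out array made a member pass the threshold in this comparison.

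**Figure D3:**
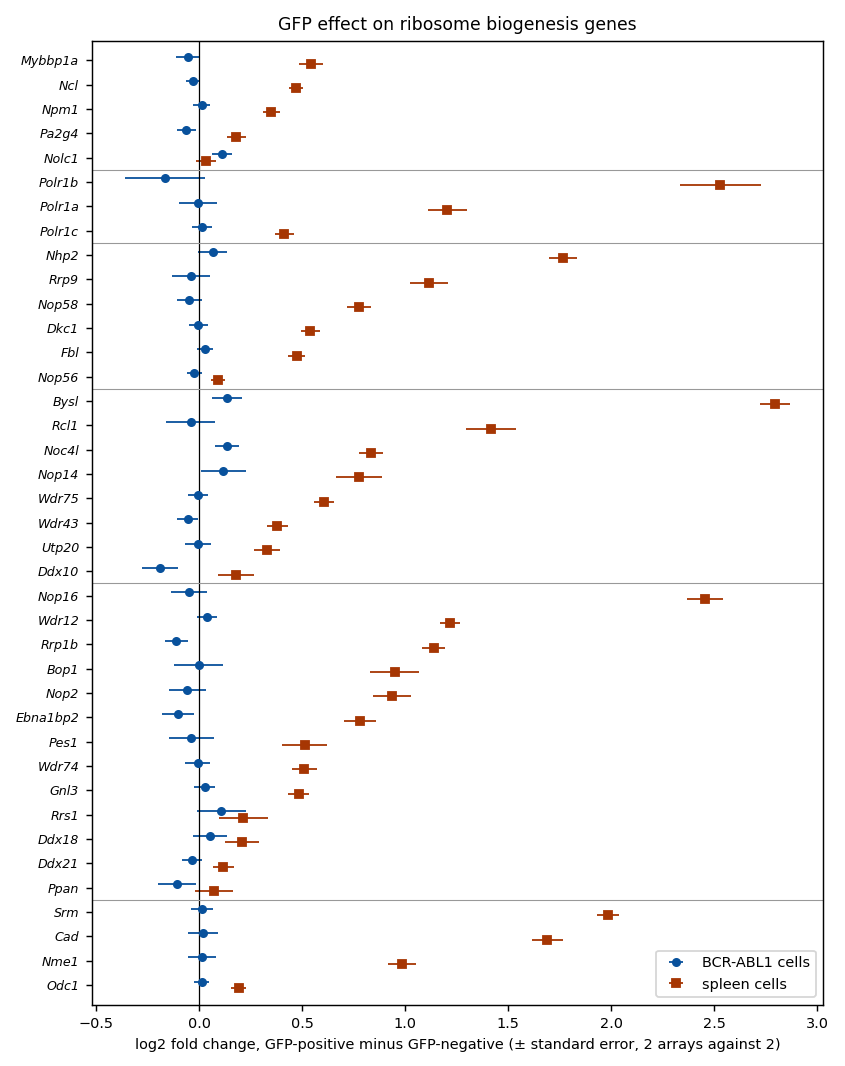
Points are log2 fold changes of GFP-positive over GFP-negative cells for the 39 members, with bars of 1 standard error, in BCR-ABL1 (circles) and spleen cells (squares), grouped by step. The BCR-ABL1 values lie between -0.19 and 0.14 and the spleen values between 0.03 and 2.79 under quantile normalisation; 9 members (Npm1, Pa2g4, Nop56, Ddx21, Odc1, Nolc1, Ddx18, Ppan and Rrs1) change sign in spleen cells with equal medians of the tested probe sets.

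The difference between these GFP effects was tested as an interaction. The effect was lower in BCR-ABL1 than in spleen cells for 33 of 39 members and higher for 0, beside 41% of all genes called lower and 28% called higher. The median difference was -0.60, against -0.18 over all genes. The 6 members without a called difference were Nolc1, Nop56, Ddx18, Ddx21, Ppan and Rrs1. All of these but Ppan had another probe set that was called lower, with -1.28 ± 0.12 and -1.20 ± 0.19 for Nolc1. Over the 82 tested member probe sets, 69 were called lower and 2 higher, beside 40.3% and 29.5% of all tested probe sets. The 2 higher ones were 1417270_at of Wdr12 (1.17 ± 0.19) and 1442296_at of Wdr75 (1.18 ± 0.31). With equal medians of the tested probe sets 24 members were called lower and 3 higher (Nolc1, Nop56 and Odc1), and 24 were called lower under all 4 scalings. Ddx10 lost its call without any of 4 single arrays, with -0.29 without BCR-ABL1 GFP-negative replicate 2, and Pes1 without that same array (-0.50, adjusted p = 0.0528).

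Both fractions were then compared between the sources. These comparisons share arrays with the GFP comparisons, so their values are set side by side and not as separate evidence. Against spleen GFP-positive cells, BCR-ABL1 GFP-positive cells were lower for 24 of 39 members and higher for 2, beside 25.5% and 24.8% of all genes. The median was -0.24, against -0.05 over all genes. These 24 and 2 members were called the same way under all 4 scalings, and none was called in opposite directions.

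Among the GFP-positive cells, all 3 RNA polymerase I members were lower in BCR-ABL1 cells, and no test compared the steps. Of the 9 further genes of RNA polymerase I and its factors, 3 were lower and 1 higher, with a median of -0.03. Polr1a had 566 and 576 in BCR-ABL1 and 1352 and 1424 in spleen cells, a difference of -1.28 ± 0.093 (adjusted p = 8.23e-06). Polr1b had 384 and 352 against 649 and 638 (-0.81 ± 0.20, and -0.75 with adjusted p = 0.0589 without BCR-ABL1 GFP-positive replicate 2), and Polr1c was lower by -0.56 ± 0.047. Of the processome and 40S genes, 6 of 8 were lower, with Rcl1 at -0.68 ± 0.12 and Nop14 at -0.67 ± 0.11. Of the large subunit genes, 8 of 13 were lower, and the polyamine and nucleotide enzymes gave 3 of 4, with Odc1 at -0.50 ± 0.037. Fbl, Nop56, Nop58 and Dkc1, 4 of the 6 snoRNP genes, did not pass the threshold, and their values were -0.01, 0.01, -0.09 and 0.10.

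The 2 members that were higher in BCR-ABL1 cells were Nolc1 and Pa2g4. Nolc1 had 4384 and 4243 against 2083 and 2140 (1.03 ± 0.049, adjusted p = 5.73e-07), and Pa2g4 had 7027 and 6849 against 5366 and 5266 (0.38 ± 0.046). For both genes this rests on the brightest probe set. The mean of the 3 probe sets of Nolc1 was -0.12, with its other 2 called lower. Of the 5 probe sets of Pa2g4, 3 were called higher and 2 lower (-0.34 ± 0.042 and -0.23 ± 0.071). In 6 members the probe sets were called in both directions in this comparison, the other 4 being Ncl, Pes1, Wdr12 and Ebna1bp2. Of the 24 members called lower, 6 lost the call when 1 array was left out (Ddx10, Ebna1bp2, Ncl, Nhp2, Nme1 and Polr1b), and the count fell to 18 without BCR-ABL1 GFP-positive replicate 2. Without both spleen GFP-negative arrays it was 25.

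Further pathway genes were lower in BCR-ABL1 GFP-positive cells for 74 of 127 and higher for 12, beside 25.5% and 24.8% of all genes. The lower ones were led by Efl1 (-1.54 ± 0.078), a GTPase of 60S maturation, Rrp12 (-1.16 ± 0.13) and Utp14a (-1.05 ± 0.097). Impdh1, an enzyme of guanine nucleotide synthesis, was higher by 2.04 ± 0.083. Genes of mitosis and DNA replication were called higher for 5 and lower for 1 of 19 tested in this comparison (26.3% and 5.26%). Of all genes, 24.8% were called higher and 25.5% lower.

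Against spleen GFP-negative cells, BCR-ABL1 GFP-negative cells were higher for 27 of 39 members and lower for 3 (Polr1c, Utp20 and Odc1), beside 45.7% and 32.8% of all genes. The median was 0.41, against 0.16 over all genes. Bysl was higher by 2.15 ± 0.073, Nop16 by 2.01 ± 0.088, Polr1b by 1.89 ± 0.20 and Srm by 1.66 ± 0.053. Odc1 was lower by -0.32 ± 0.037, with 5224 and 5411 against 6540 and 6740. This comparison again rests on the spleen GFP-negative arrays with their myeloid, T and NK cell markers, whose part was not tested, and on the scaling: 19 members were higher and 1 (Odc1) lower under all 4 scalings, and 8 were called in opposite directions. The sign of another 9 (Ncl, Polr1a, Fbl, Nop14, Noc4l, Gnl3, Pes1, Ppan and Rrs1) also changed, without opposite calls. Wdr75 and Wdr12 had probe sets called in both directions in this comparison. With equal medians of the tested probe sets 19 were higher and 9 lower, and 44% of all calls were higher, against 58.2% in the main scaling.

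**Figure D4:**
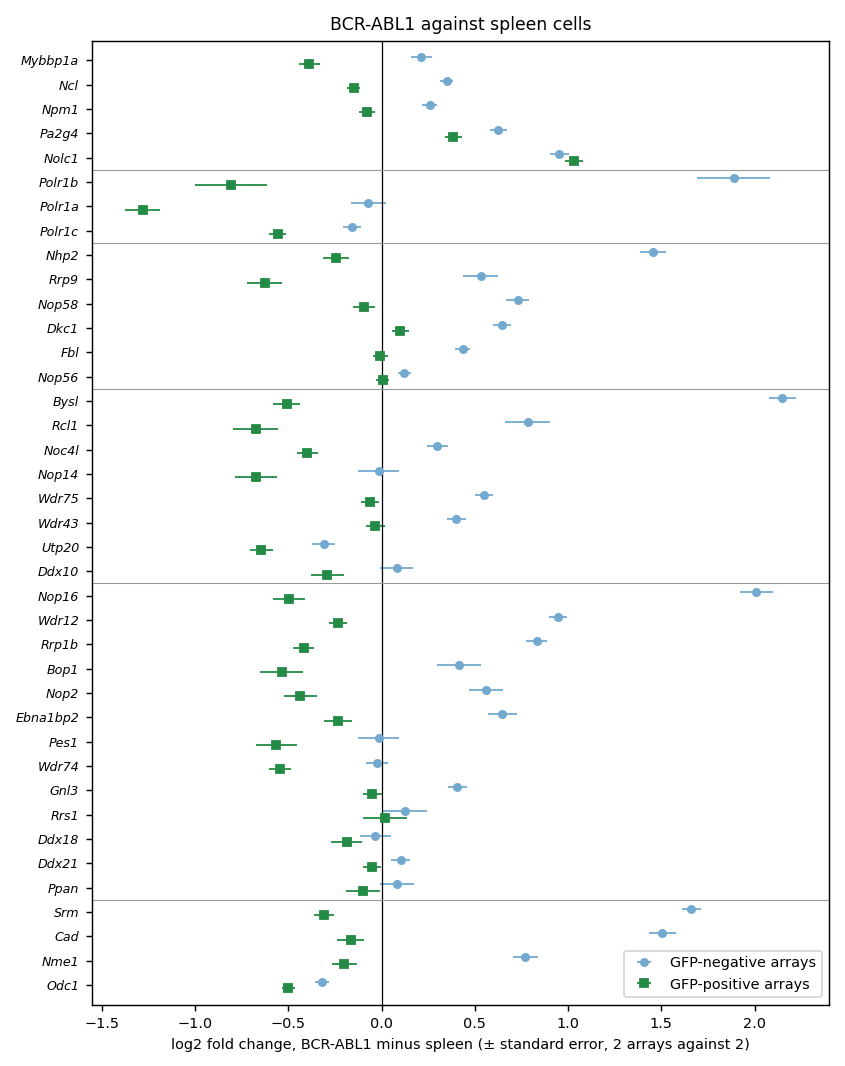
Points are log2 fold changes of BCR-ABL1 over spleen cells for the 39 members, with bars of 1 standard error, among GFP-negative (circles) and GFP-positive arrays (squares), grouped by step. Most members lie above 0 among GFP-negative and below 0 among GFP-positive arrays; Nolc1 (0.95 and 1.03) lies above 0 in both and Odc1 (-0.32 and -0.50) below 0 in both, while the sign of 17 members among GFP-negative arrays changes with the scaling, 8 of them called in opposite directions.

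Set side by side, 16 members were called lower in BCR-ABL1 than in spleen cells among GFP-positive arrays and higher among GFP-negative arrays. They are Ncl, Mybbp1a, Polr1b, Rrp9, Nhp2, Noc4l, Rcl1, Bysl, Nop2, Nop16, Bop1, Wdr12, Rrp1b, Ebna1bp2, Srm and Nme1. This joint count was not made over all genes. Among GFP-negative arrays, Mybbp1a was called in opposite directions by different scalings, and Ncl and Noc4l changed sign. There Wdr12 also had a probe set called lower (-0.45 ± 0.13). Bop1 went from 0.41 to 0.24 without spleen GFP-negative replicate 1. Mybbp1a went from 0.21 to 0.17 without BCR-ABL1 GFP-negative replicate 2. Among GFP-positive arrays, Ncl, Wdr12 and Ebna1bp2 had probe sets called in both directions. Another 9, among them Fbl, Nop58, Dkc1 and Cad, were higher among GFP-negative arrays and not called among GFP-positive arrays. For 19 members all 4 BCR-ABL1 arrays lay between the spleen fractions, and for 27 the spleen GFP-positive arrays lay above the other 6. These orders were not counted over all genes. For single pairs of groups, 49.9% of all genes had spleen GFP-positive above spleen GFP-negative arrays. BCR-ABL1 lay above spleen among GFP-negative arrays for 50.5% of all genes, and below spleen among GFP-positive arrays for 44.1%. The brightest probe sets of the 39 members together took a share of the summed normalised signal of 0.466% to 0.472% on the BCR-ABL1 arrays, 0.349% and 0.357% on the spleen GFP-negative and 0.525% and 0.537% on the spleen GFP-positive arrays.

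Probe sets of the same gene did not always give the same size of difference. Of the 39 members, 28 had several tested probe sets, 71 in all. In 12 genes their spleen GFP effects spanned more than 1 log2 unit, and the brightest probe set, which represents the gene, had the smallest value in 16 and the largest in 8. Over the 43 other probe sets the median rise was 0.94, with 37 called higher and 2 lower, against 0.54 over the brightest. In all, 71 of 82 member probe sets were called higher and 2 lower, beside 44.9% and 33.3% of all tested probe sets, and 38 of 39 members had at least 1 called higher.

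Several members that did not pass the threshold had another probe set that did. A second probe set of Ddx21 had 1467 and 1358 in GFP-negative and 3345 and 3831 in GFP-positive spleen cells (1.34 ± 0.086), where the brightest gave 0.12. The 2 other probe sets of Nolc1 gave 1.06 ± 0.083 and 1.00 ± 0.13 where the brightest gave 0.03. Rrs1 gave 1.28 ± 0.11 on its other probe set, against 0.21. For Ddx10 the other probe set gave 0.77 ± 0.093, against 0.18. Ddx18, just past the threshold at 0.21 on its brightest, gave 1.12 ± 0.10 and 1.75 ± 0.13 on its others. Nop56, at 0.09 on its brightest, gave 0.65 ± 0.038 on the other. Nop16 and Nme1 went the other way. The second probe set gave 0.19 ± 0.12 for Nop16, against 2.46, and 0.14 for Nme1, against 0.99, and neither was called. Bysl (2.16 against 2.79), Bop1 (0.50 against 0.95) and Ebna1bp2 (0.36 against 0.78) were also smaller on their second probe set.

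In 2 genes the probe sets were called in opposite directions between the spleen fractions. Probe set 1417270_at of Wdr12 had 1348 and 1573 in GFP-negative and 580 and 664 in GFP-positive spleen cells (-1.23 ± 0.13), against 1.22 for the brightest. Probe set 1442296_at of Wdr75 had 308 and 221 against 129 and 126 (-1.03 ± 0.22), against 0.61. Which transcript each of these measures was not examined here. The mean of all tested probe sets gave -0.01 for Wdr12 and -0.21 for Wdr75.

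**Figure D5:**
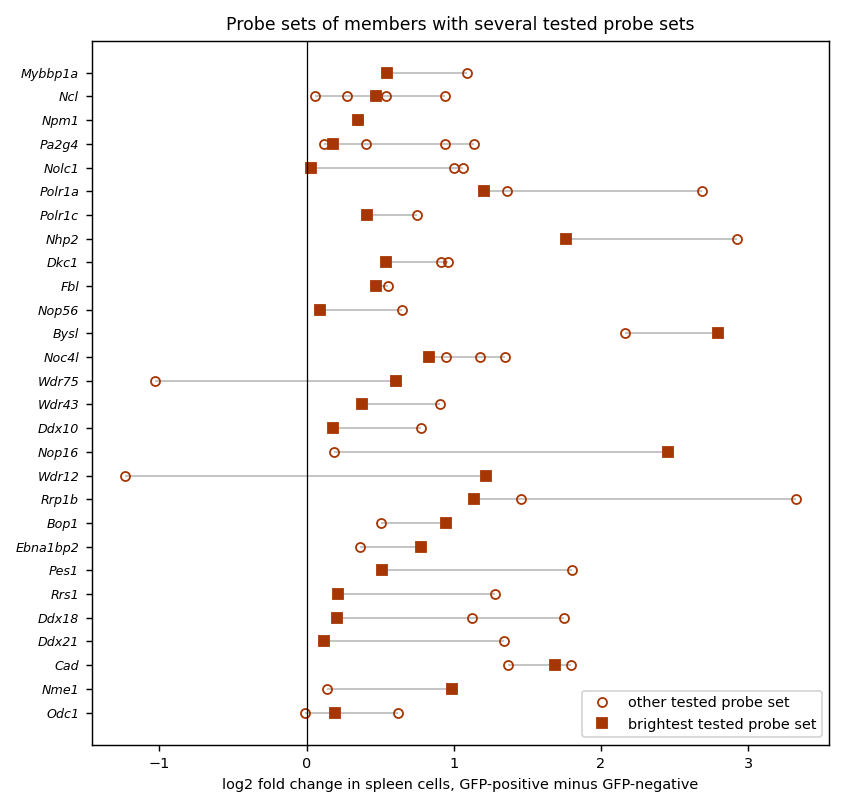
Each row is 1 of the 28 members with several tested probe sets, and the x axis is the log2 fold change of GFP-positive over GFP-negative spleen cells under quantile normalisation. Filled squares are the brightest probe sets and open circles the others. Most circles lie to the right of the square, while those of Wdr12 (-1.23) and Wdr75 (-1.03) and 1 of Odc1 (-0.01, not called) lie below 0.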

How the data were processed

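The authors deposited signal intensities, linear and 1 per probe set, made with GCOS 1.3 per the submitters' processing notes. How probes were summarised and arrays scaled was not given in the sources used here. Control probe sets (64) were dropped. Of the other 45037, a single gene symbol was annotated for 34945, more than 1 for 932 and none for 9160. The 8 arrays were quantile normalised, values under 32 were raised to 32, and log2 was taken. The filter removed probe sets whose mean log2 value lay under the 40th percentile (5.67, or a signal of 51.0). The brightest remaining probe set annotated to a single symbol stood for its gene, for 12223 genes. A single limma 3.58.1 fit (R 4.3.3) on all 8 arrays estimated a mean for each of the 4 groups, with 4 residual degrees of freedom and a trended eBayes prior. Benjamini-Hochberg adjustment ran over the 12223 genes of each comparison. The scripts were tested on simulated data. Precision is limited by the 2 arrays of each group.

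The members and gene lists were chosen with earlier results of these data known. Any member could be named. From each pathway list the rule allowed the 4 called genes of greatest change in either direction, and the text prints some of these, chosen with their values known. Markers and cell state genes were named where their list moved with a result. The alternatives were other scalings, floors, filters, variance models, probe set rules and subsets of arrays. Leaving out both spleen GFP-negative arrays, leaving out probe sets marked _x_at or _s_at, and equal medians of the tested probe sets were added after seeing the data. Values for the reporter's own gene are not reported here.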

Additional observations from a re-analysis of the deposited data

Results flagged for a closer look

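The GFP effect differed between BCR-ABL1 and spleen cells for 33 of 39 members, by limma's test of the interaction (adjusted p under 0.05 over 12223 genes), beside 41% of all genes called in this direction. The values below are the effect in BCR-ABL1 cells minus the effect in spleen cells, as log2 fold changes, so a negative value means a smaller rise with GFP in BCR-ABL1 cells. Among genes of RNA polymerase I the differences were -2.70 for Polr1b, -1.21 for Polr1a and -0.40 for Polr1c. In the nucleolar scaffold they were -0.60 for Mybbp1a, -0.50 for Ncl, -0.34 for Npm1 and -0.24 for Pa2g4. For the snoRNPs the values were -1.70 for Nhp2, -1.16 for Rrp9, -0.82 for Nop58, -0.54 for Dkc1 and -0.44 for Fbl. Members of the processome and 40S assembly gave -2.66 for Bysl, -1.46 for Rcl1, -0.70 for Noc4l, -0.66 for Nop14, -0.61 for Wdr75, -0.44 for Wdr43, -0.37 for Ddx10 and -0.33 for Utp20. Those of large subunit assembly were -2.51 for Nop16, -1.25 for Rrp1b, -1.18 for Wdr12, -0.99 for Nop2, -0.95 for Bop1, -0.88 for Ebna1bp2, -0.55 for Pes1, -0.52 for Wdr74 and -0.46 for Gnl3. The values of the polyamine and nucleotide enzymes were -1.97 for Srm, -1.67 for Cad, -0.97 for Nme1 and -0.18 for Odc1. Among the genes named, adjusted p ran from 2.74e-07 for Srm to 0.0271 for Ddx10. These values are those of the brightest probe sets, and Wdr12 and Wdr75 each had another probe set called in the opposite direction. All 33 rest on the spleen GFP-negative arrays, which carry the myeloid, T and NK cell markers, and 24 of the 39 members were called lower under all 4 scalings.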

How the results depend on the processing

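The counts of members called held within 1.5 times in most settings. In BCR-ABL1 cells no setting called any member (0 higher, 0 lower). Leaving out 1 array gave 33 to 34 members higher for the GFP effect in spleen cells, 31 to 34 lower for the difference, 18 to 24 lower and 2 higher among GFP-positive arrays, and 25 to 27 higher and 2 to 4 lower among GFP-negative arrays. Members called in every setting were 26 of 34, 21 of 33, 16 of 26 and 20 of 30 in that order. Equal medians of the tested probe sets moved 3 counts: 5 members lower in spleen cells, 3 higher for the difference and 9 lower among GFP-negative arrays. The last count was 1 on the deposited scale and 1 with equal medians. Members that were called in quantile normalisation or in the other setting, and whose value changed sign between them, are given next. In spleen cells, those that turned with equal medians of the tested probe sets were Npm1 -0.16, Pa2g4 -0.15, Nop56 -0.31, Ddx18 -0.081, Ddx21 -0.25 and Odc1 -0.19 (another 3, Nolc1, Ppan and Rrs1, were called in neither); with the probe sets of a gene averaged, Wdr75 -0.21 and Wdr12 -0.0061. For the difference they were Npm1 0.15, Pa2g4 0.056, Nop56 0.26 and Odc1 0.17 with equal medians of the tested probe sets (another 4, Ddx18, Ddx21, Ppan and Rrs1, were called in neither), Nolc1 -0.25 on the deposited scale, -0.40 with equal medians and -0.80 with the mean of probe sets, and Wdr75 0.28 with that mean. Among GFP-positive arrays the mean of probe sets gave Ncl 0.037, Nolc1 -0.12, Pes1 0.24, Wdr12 0.24 and Ebna1bp2 0.49, and Nop56 was -0.12 without _x_at or _s_at probe sets and -0.11 with equal medians of the tested probe sets. Among GFP-negative arrays the deposited scale gave Polr1a 0.51, Polr1c 0.087, Nop14 0.30, Utp20 0.10, Pes1 0.29 and Wdr74 0.32. Equal medians gave Polr1a 0.62, Polr1c 0.20, Nop14 0.41, Utp20 0.21, Ddx18 0.26, Pes1 0.40 and Wdr74 0.43. The mean of probe sets gave Polr1a 0.56, Wdr75 -0.31, Ddx18 0.92 and Pes1 1.25 there, Pes1 was 0.17 without spleen GFP-negative replicate 2, and Polr1c was 0.015 without _x_at or _s_at probe sets. Equal medians of the tested probe sets gave Ncl -0.10, Npm1 -0.31, Mybbp1a -0.20, Fbl -0.029, Nop56 -0.37, Noc4l -0.024, Ddx21 -0.34 and Gnl3 -0.0035 (another 2, Ppan and Rrs1, were called in neither). Apart from the construction of each setting, the cause of these turns was not tested. Over all genes, calls in BCR-ABL1 cells (375 higher and 281 lower) fell to 101 to 127 higher and 101 to 120 lower without 1 of its arrays, and rose to 1166 and 808 with its 4 arrays alone. With the replicate number as a block, 36 members were higher in spleen cells, 35 lower for the difference, 3 higher and 27 lower among GFP-positive arrays, 28 higher and 3 lower among GFP-negative arrays, and 0 in BCR-ABL1 cells. The labels do not say that a number marks a shared mouse or day, and with 2 pairs the correlations of same-numbered deviations (0.129 to 0.286) do not settle it. By their brightest probe sets, all member genes lay above the filter in all groups. Low signal limits the 4 untested probe sets and also some tested ones that were not the brightest. On the spleen GFP-negative arrays such probe sets had 44.3 and 32 for Pes1, 32 and 37.3 for Cad, and 49.8 and 44.6 for Ebna1bp2. These lie under the filter signal of 51.0, and they enter the means of probe sets given above for Pes1 and Ebna1bp2.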
